A study of Mus musculus with 26 samples.

Results

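The change described here is that of pancreatic islet macrophages of NOD mice between 2 and 12 weeks of age. It was read from 7 of the 26 RNA-seq libraries of the series, 4 from NOD mice at 2 weeks and 3 from NOD mice at 12 weeks, over all 40558 genes of the deposited count table. The members were every gene of that table, and 19703 passed a filter on low counts and were tested. All mice were female. The NOD/ShiLtJ strain (NOD) is an inbred model of spontaneous type 1 diabetes. C57BL/6J mice (B6), an inbred strain free of that disease, gave 3 libraries at 2 weeks and 4 at 12 weeks for comparison. NOD mice at 4 weeks and at 8 weeks gave 4 libraries each, used for levels between the ages and for the step from 4 to 8 weeks. B6 mice at 4 weeks gave 4 libraries, used for class II levels. All of these libraries were also part of the main fit. The mice carried no transgene or treatment according to the labels. Each library came from islet cells pooled over several animals, from which live cells positive for CD45, F4/80 and CD11c and negative for B220 and CD90 were sorted, and the RNA was amplified before sequencing. Nothing else in the labels says how the libraries of a group were kept apart, so the p-values measure the spread between libraries of a group. In the main fit that spread was estimated over all 26 libraries of the series, those of B6 included.

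Islets of healthy mice hold resident macrophages that lie along the vessels and in contact with beta cells, present antigen and take up debris. In NOD mice T cells enter the islets and release interferon-gamma. This cytokine binds its receptor on macrophages and, through JAK and STAT signalling, switches on genes for antigen presentation, guanylate-binding proteins and chemokines that attract more T cells. Dimers of STAT factors bind a short palindrome called GAS, and interferon regulatory factors and the complex formed downstream of type I interferons bind a repeat called ISRE.

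Total counts were 10247489 to 13859955 in the 2 week libraries and 7187506 to 10502204 in the 12 week libraries. The Spearman correlation over genes was 0.904 to 0.926 between libraries at 2 weeks, 0.904 to 0.936 at 12 weeks and 0.858 to 0.913 between the ages. Levels are counts per 1000000 of the scaled library total (CPM), and genes with an adjusted p under 0.05 are referred to as called. Ptprc and Adgre1, which encode CD45 and F4/80, were at similar levels at both ages (log2 fold changes of 0.12 and -0.07, adjusted p = 0.823 and 0.94), and Itgax, which encodes CD11c, was higher at 12 weeks (1.14 ± 0.15, adjusted p = 8.53e-06). The sort selected on these 3 genes, so their levels are no result. In B6, the 2 week replicate 2 stood above its group for many interferon genes. The counts of strain differences, and the values of some genes that moved with it, are given with and without it.

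At 12 weeks the NOD macrophages had more RNA for several chemokines, for the interferon-gamma response, for both classes of antigen presentation and for complement component C3. They had less for part of the lipid handling and phagocytosis genes and for single matrix genes such as Sparc. Of the genes tested, 352 were higher at 12 weeks (1.79% of those tested) and 247 were lower (1.25%). The libraries of the 2 ages did not overlap for 349 of the 352 and for 246 of the 247. Over all tested genes, whether called or not, they did not overlap for 23.5%, with 13.6% higher in every 12 week library and 9.91% lower. The median log2 fold change of all tested genes was 0.08. When scaled by the upper quartile in place of the trimmed mean, 420 genes were higher and 170 lower, so the higher share of the calls went from 58.8% to 71.2%. A fit of the 15 NOD libraries alone, which leaves out the more variable B6 libraries, called 1284 genes higher (7.8% of its 16468 genes) and 1218 lower (7.4%). Of the 599 calls, 588 were also made by that fit in the same direction. With all groups but the B6 4 week libraries in the fit, 897 genes were higher and 744 lower. With all 7 groups but without the NOD 12 week replicate 1, 216 genes were higher and 157 lower, without replicate 2 the counts were 283 and 142, and without replicate 3 they were 209 and 142.

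The promoters of 4 interferon-gamma response genes that rose are printed to show the elements named above. The genes were taken by smallest adjusted p among list members that rose and hold a match. Not every list member was open to this choice, so a member with a smaller adjusted p may be missing. The promoters come from RefSeq (GRCm38.p6), as the 250 bases before the gene's start, 5′ to 3′ on the coding strand. Capitals mark each match to GAS (TTCNNNGAA) or ISRE (GAAA, any 2 bases, GAAA, on either strand), and the matches do not overlap. The windows are Serpina3g at chr12:104235897-104236146 (+), Fcgr4 at chr1:171018676-171018925 (+), Psmb8 at chr17:34197945-34198194 (+) and Gbp2 at chr3:142620413-142620662 (+). In GENCODE the Psmb8 gene starts at chr17:34197721, so its window lies inside the annotated gene. The Gbp2 gene starts there at chr3:142620602, so its match also lies inside the annotated gene.
Serpina3g: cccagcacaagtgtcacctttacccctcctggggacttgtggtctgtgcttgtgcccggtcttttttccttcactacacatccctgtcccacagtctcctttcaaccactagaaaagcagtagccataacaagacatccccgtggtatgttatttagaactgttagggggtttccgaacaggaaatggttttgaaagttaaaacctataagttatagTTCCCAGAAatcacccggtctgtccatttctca
Fcgr4: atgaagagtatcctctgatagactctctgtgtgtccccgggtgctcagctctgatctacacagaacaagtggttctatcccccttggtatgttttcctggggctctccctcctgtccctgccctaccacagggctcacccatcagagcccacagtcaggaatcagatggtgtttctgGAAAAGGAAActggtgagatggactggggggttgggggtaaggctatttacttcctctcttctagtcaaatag
Psmb8: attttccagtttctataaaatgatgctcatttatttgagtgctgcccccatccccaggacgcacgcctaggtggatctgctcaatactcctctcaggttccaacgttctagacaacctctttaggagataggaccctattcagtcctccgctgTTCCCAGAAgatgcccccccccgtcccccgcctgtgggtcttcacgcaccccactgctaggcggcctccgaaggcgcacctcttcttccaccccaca
Gbp2: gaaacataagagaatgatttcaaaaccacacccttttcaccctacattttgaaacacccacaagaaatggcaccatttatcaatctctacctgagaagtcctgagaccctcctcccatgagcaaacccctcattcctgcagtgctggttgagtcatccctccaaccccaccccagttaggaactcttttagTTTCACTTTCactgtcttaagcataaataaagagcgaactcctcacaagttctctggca
The GAS match lies 33 bases before the start in Serpina3g, which encodes a serine protease inhibitor of antigen-presenting cells, and 97 bases before it in Psmb8, a subunit of the immunoproteasome. The ISRE match lies 73 bases before the start in Fcgr4, an activating Fc receptor for IgG, and 59 bases before it on the reverse strand in Gbp2, a guanylate-binding GTPase.

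One or both elements occurred in 9.83% of the 27025 promoters in the reference table and in 8.65% of the 13543 promoters of tested genes. Among the interferon-gamma response genes, 26 had a promoter in the table and 17 of them held a match. Of the 18 that rose, 7 held GAS, 8 held ISRE and 11 held at least 1 of them (61.1%). Over all genes that rose, 16.2% of 272 promoters held a match, and over all genes that fell, 8.79% of 182 did. A match of letters is a description and does not show that a factor binds there.

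The interferon-gamma response list had 37 genes, of which 36 were tested, and Gbp10 is not analysed here. At 12 weeks 24 were called higher, set against 1.79% of all genes, all 36 log2 fold changes were positive, and the median was 2.40 against 0.08 over all genes. In the fit of the NOD libraries alone 31 of 35 were higher, and without the 12 week replicate 3 the fit of all groups called 15. Cxcl9 (chr5:92321347-92328079, minus strand, GRCm38), a ligand of the chemokine receptor Cxcr3 on activated T cells, was at 4.07, 4.20, 6.22 and 15.7 CPM in the 2 week libraries and at 2525, 2181 and 3400 CPM at 12 weeks. Every 12 week library thus lay far above every 2 week library, and the difference was 361-fold (log2 fold change 8.49 ± 1.05 SE, adjusted p = 2.89e-05). Levels between these ages were in between, at up to 177 CPM at 4 weeks and a mean of 1588 CPM at 8 weeks. Serpina3g went from 0.194, 0.258, 0.630 and 0.944 CPM to 129, 132 and 142 CPM (8.06 ± 0.94, adjusted p = 5.18e-07). Its 3 libraries at 12 weeks were nearly level. Reads of Serpina3g may be shared with near copies such as Serpina3f, as those of Gbp, Tgtp, Ly6 and class I genes may be with theirs.

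Several members act inside the cell against microbes. Iigp1, an interferon-inducible GTPase, was at 0.129, 2.46, 0.236 and 0.343 CPM at 2 weeks and at 49.7, 48.5 and 87.3 CPM at 12 weeks (75.8-fold, adjusted p = 9.45e-05). Gbp2 was at 19.6, 15.5, 17.9 and 14.1 CPM at 2 weeks and at 134, 134 and 152 CPM at 12 weeks (8.34-fold, adjusted p = 0.0022). Acod1, which makes itaconate, was at 0.323 to 0.787 CPM at 2 weeks and at 91.5, 32.0 and 54.7 CPM at 12 weeks (103-fold, adjusted p = 2.04e-06). The groups did not overlap for any of the 3 genes. Cd274, which encodes the checkpoint ligand PD-L1, was at 3.81, 17.3, 8.90 and 23.9 CPM and then at 479, 311 and 463 CPM (31.1-fold, adjusted p = 0.000821). Fcgr4 and Psmb8, whose promoters are printed above, rose 4.29-fold and 3.91-fold (adjusted p = 4.80e-06 and 1.05e-05). Ly6a, a surface protein induced by interferons, was at 0.0859 to 0.157 CPM at 2 weeks and at 53.1, 51.8 and 73.3 CPM at 12 weeks (log2 fold change 8.75 ± 1.30, adjusted p = 3.54e-05). Not all members passed the test: Cxcl10, also a Cxcr3 ligand, was 2.27-fold higher with adjusted p = 0.0989, and the log2 fold changes of Irf8 and Fcgr1 were 0.50 and 0.17.

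Among genes of the receptor and its signalling, 4 of 14 tested were higher and 1 was lower. Socs3, an inhibitor of JAK and STAT signalling, was at 91.7, 136, 151 and 149 CPM at 2 weeks and at 534, 363 and 483 CPM at 12 weeks, with no overlap, a rise of 1.80 ± 0.37 on the log2 scale (adjusted p = 0.00295). Stat3, a transcription factor downstream of cytokine receptors, rose by 0.85 ± 0.16. Irf1, an interferon regulatory factor, was called at 2.33-fold (adjusted p = 0.0391), but not when any library of either group was left out. Ifngr1, the ligand-binding chain of the receptor, was at 381, 401, 346 and 463 CPM and then at 216, 169 and 229 CPM, 1.94-fold lower (adjusted p = 0.000321). Ifngr2, the other chain, was not called (log2 fold change -0.24, adjusted p = 0.765). RNA for the cytokine itself, Ifng, was at most 0.216 CPM in any of the 7 libraries and was too low to be tested. Of the type I interferon-stimulated list, 3 of 29 were higher and 1 was lower (median 0.65). Zbp1, a sensor of nucleic acids, rose 4.66-fold (adjusted p = 0.00106) and kept its call in every setting tried. Siglec1, a sialic acid receptor, fell 3.35-fold (adjusted p = 0.00438), and was not called without the 12 week replicate 3 (adjusted p = 0.0527). Ifih1 and Parp14 were also called higher. Ifih1 lost its call with the replicate block and without the 2 week replicate 2, 3 or 4 or the 12 week replicate 1 or 3 (adjusted p up to 0.202), and Parp14 without the filter, the 2 week replicate 4 or the 12 week replicate 2 or 3 (adjusted p up to 0.198). The higher count of this list was 1 without the 2 week replicate 4 and 1 without the 12 week replicate 3. Isg15 and Ifit1 had log2 fold changes of 0.97 and 0.35 and were not called.

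**Figure D1:**
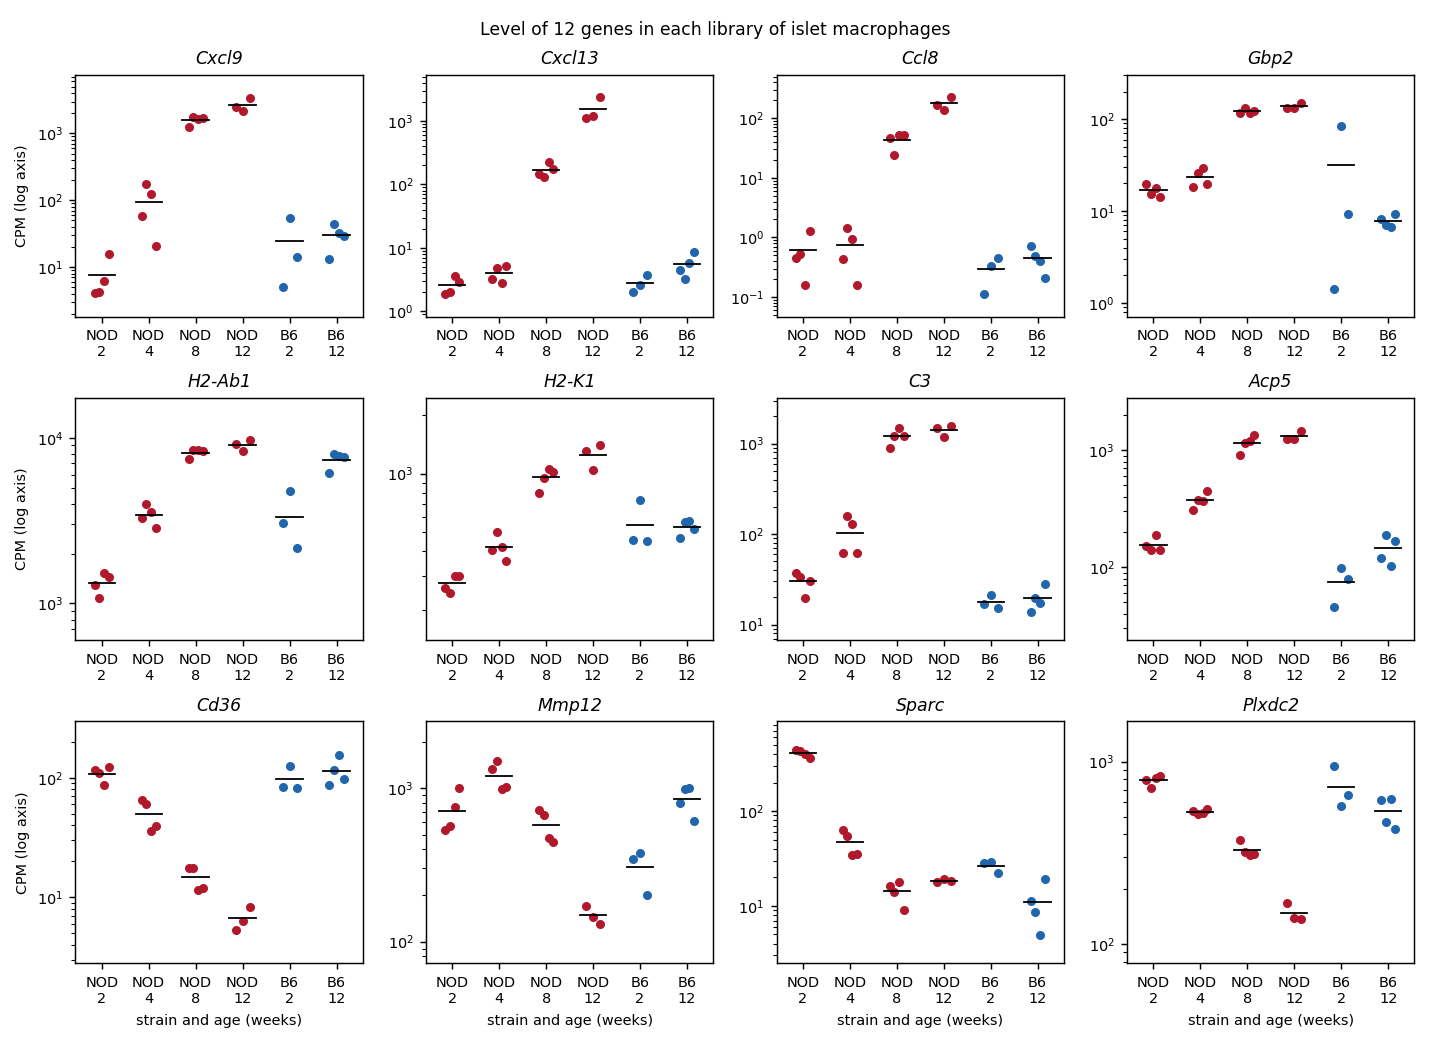
Level of 12 genes in each library, as CPM on log axes, by strain and age in weeks, with NOD in red, B6 in blue and a bar at the group mean. In every panel the NOD libraries at 12 weeks lie apart from those at 2 weeks, and for Cxcl9, for example, they sit between 2181 and 3400 CPM against 4.07 to 15.7 CPM.

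Among chemokines, 4 of 24 tested ligands were higher, Cxcl9 among them, and 2 were lower, with a median of 0.85. Cxcl13 (chr5:95956951-95961068, plus strand), which attracts B cells through Cxcr5, was at 1.87, 2.00, 3.62 and 2.92 CPM at 2 weeks and at 1138, 1186 and 2386 CPM at 12 weeks (605-fold, 9.24 ± 0.41, adjusted p = 2.23e-16). The third 12 week library was the highest, and the groups did not overlap. Means were 3.94 CPM at 4 weeks and 168 CPM at 8 weeks. Ccl8 (chr11:82115185-82116799, plus strand), a ligand for monocytes and T cells, was at 0.452, 0.517, 0.157 and 1.29 CPM and then at 167, 137 and 231 CPM (294-fold, adjusted p = 4.75e-10). Its mean at 4 weeks, 0.739 CPM, lay within the range at 2 weeks, and at 8 weeks it was 43.9 CPM. Ccl5, a T cell attractant, rose 47.4-fold (adjusted p = 0.00113). Cxcl14 and Ccl9 fell by 1.39 and 1.14 on the log2 scale (adjusted p = 0.00787 and 0.00695). Cxcl14 was not called without the 12 week replicate 3 (adjusted p = 0.0503), and Ccl9 not without the 12 week replicate 2 or replicate 3 (adjusted p up to 0.0878). The lower count was 1 without replicate 2 and 0 without replicate 3. Ccl2, which attracts monocytes, was 6.04-fold higher with adjusted p = 0.112.

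Of 25 cytokine and mediator genes tested, 6 were higher and 3 lower, or 1 lower without the 12 week replicate 2. Il12b, a subunit of IL-12 and IL-23, was at 1.03, 1.03, 1.89 and 2.15 CPM at 2 weeks and at 111, 41.5 and 69.3 CPM at 12 weeks (48.4-fold, adjusted p = 0.000222). Il18bp, the soluble inhibitor of IL-18, rose 15.4-fold and Il1rn, the antagonist of the IL-1 receptor, 11.8-fold (adjusted p = 1.69e-05 and 6.55e-05). The genes for the 2 forms of IL-1 went opposite ways. Il1b was at 263, 286, 290 and 259 CPM and then at 1138, 731 and 1082 CPM (3.58-fold higher, adjusted p = 6.61e-06). Il1a was at 238, 334, 335 and 335 CPM and then at 78.4, 42.7 and 48.7 CPM (5.48-fold lower, adjusted p = 0.000147). Ptgs2, the inducible cyclooxygenase, rose 6.47-fold (adjusted p = 2.60e-05), and Hpgd, which inactivates prostaglandins, fell 13.5-fold (adjusted p = 1.17e-07). Tnf was not called (log2 fold change 0.24). Among 31 receptors, 5 were higher and 3 lower: Il2rg, the chain shared by receptors of the IL-2 family, rose 8.66-fold (adjusted p = 2.46e-07), and Csf1r, the receptor for the survival factor of macrophages, was at 2201 to 2320 CPM and then at 1410, 1151 and 1334 CPM (1.76-fold lower, adjusted p = 2.87e-05).

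Genes of MHC class II presentation rose in NOD. Of 13 tested, 11 were higher, with a median of 2.22, and the libraries of the ages did not overlap for any of the 13, against 23.5% of all tested genes without overlap. H2-Ab1 (chr17:34257689-34269419, plus strand), the beta chain of the class II molecule I-A, was at 1288, 1075, 1526 and 1445 CPM at 2 weeks and at 9183, 8380 and 9733 CPM at 12 weeks (6.82-fold, 2.77 ± 0.18, adjusted p = 2.30e-12). H2-Eb1, the beta chain of I-E, rose 8.13-fold, from 901 to 1529 CPM up to 8495 to 10272 CPM (adjusted p = 1.89e-12). Cd74, the invariant chain that guards the class II groove, was at 3370, 2709, 3672 and 3810 CPM and then at 18321, 14216 and 15859 CPM (4.76-fold, adjusted p = 4.22e-12). Ciita, the transcriptional activator of these genes, rose 4.65-fold (adjusted p = 2.66e-07), and Ifi30, a thiol reductase that opens antigens, 3.24-fold (adjusted p = 2.99e-08). Means of H2-Ab1 were 3423 CPM at 4 weeks and 8139 CPM at 8 weeks, so most of its increase lay before 8 weeks.

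MHC class I presentation rose as well, with 12 of 19 tested genes higher and a median of 1.25, of which Tap1, Psmb8, Psme1 and Psme2 also stand in the interferon-gamma list. The call of Psme1 was lost without any 1 of the 7 libraries, and that of Psme2 without the 2 week replicate 1, 2 or 3 or the 12 week replicate 1 or 3 (adjusted p up to 0.246 and 0.231). H2-K1, a class I heavy chain, was at 260, 245, 300 and 299 CPM at 2 weeks and at 1311, 1046 and 1398 CPM at 12 weeks (4.53-fold, adjusted p = 9.45e-11). B2m, the light chain, rose 2.36-fold (adjusted p = 6.61e-06). Nlrc5, the activator of class I genes, rose 3.86-fold (adjusted p = 9.45e-05), and Tap1, which pumps peptides into the endoplasmic reticulum, 3.51-fold (adjusted p = 0.00753). The calls of 2 other class I genes were also open to omissions. That of H2-T23 was lost without any 1 of the 7 libraries, and that of Pdia3 without any but the 12 week replicate 2. Of 18 costimulation and checkpoint genes, 6 were higher and 1 lower. The lower 1 was Lgals9, whose call was lost without any 1 of the 7 libraries. Slamf7, a self-binding surface receptor of immune cells, was at 0.452 to 2.49 CPM and then at 80.6, 50.9 and 67.3 CPM (53.6-fold, adjusted p = 1.11e-10). Cd40, which receives help from T cells, rose 21.7-fold (adjusted p = 9.91e-05) and Cd86, a ligand of Cd28, by 0.86 on the log2 scale (adjusted p = 0.00322).

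**Figure D2:**
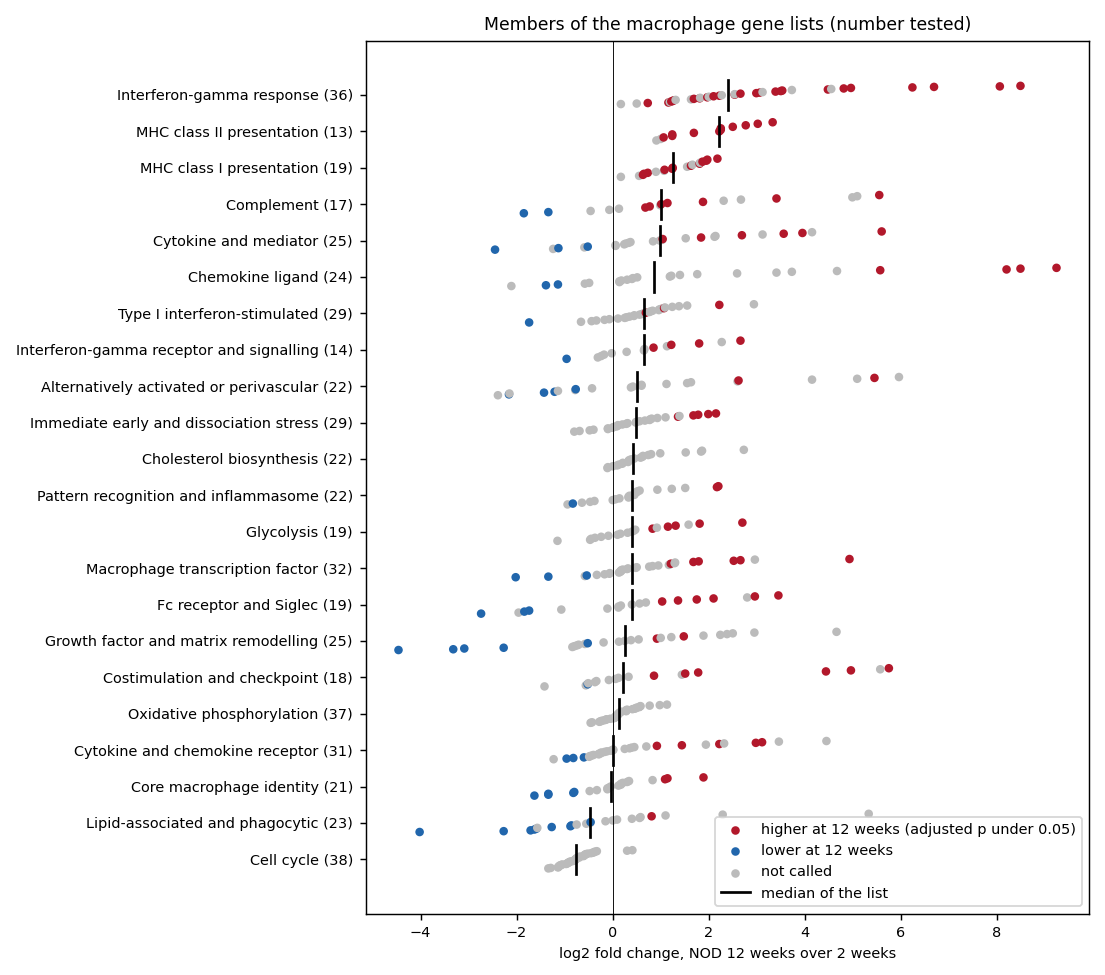
Log2 fold change of NOD 12 over 2 weeks for each tested member of the macrophage gene lists, with a bar at each list's median and the number tested beside its name. Red points are called higher, blue points called lower and grey points not called; the interferon-gamma response and the presentation lists lie highest, with medians of 2.40, 2.22 and 1.25.

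Of 17 complement genes tested 7 were higher, with Itgax of the gate counted there too, and 2 were lower. C3 (chr17:57203970-57228136, minus strand), the central component, was at 37.1, 33.7, 19.7 and 30.3 CPM at 2 weeks and at 1488, 1175 and 1578 CPM at 12 weeks (46.7-fold, 5.55 ± 0.42, adjusted p = 4.38e-10). The 3 chains of C1q, which starts the classical pathway, rose by 1.01, 0.77 and 0.68 on the log2 scale in C1qa, C1qb and C1qc. Cfp, which encodes properdin and stabilises the alternative pathway, rose 3.69-fold (adjusted p = 0.00654), but was not called without the 12 week replicate 3 (adjusted p = 0.0574). Acp5, a lysosomal acid phosphatase, belongs to no list and was among the smallest adjusted p: it was at 151, 141, 189 and 139 CPM and then at 1254, 1256 and 1467 CPM (8.53-fold, adjusted p = 1.27e-10).

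More genes of lipid handling and phagocytosis fell than rose in NOD, with 9 of 23 tested lower, against 1.25% of all genes, and 1 higher (median -0.47). The fit of the NOD libraries alone called 12 of 22 lower and 5 higher, DESeq2 called 7 lower and 4 higher, and limma-voom 12 and 5. Of the 9, Axl lost its call without any 1 of the 7 libraries. Plin2 lost it without any 2 week library or the 12 week replicate 2 or 3, and Lpl without the 2 week replicate 4 or any 12 week library. Cd36 (chr5:17781690-17888801, minus strand), a scavenger receptor for lipids, was at 115, 109, 86.6 and 122 CPM at 2 weeks and at 5.29, 6.35 and 8.33 CPM at 12 weeks, 16.2-fold lower (-4.02 ± 0.32, adjusted p = 2.60e-10). Its means of 50.1 CPM at 4 weeks and 14.7 CPM at 8 weeks lay in between. Mmp12 (chr9:7344381-7369499, plus strand), the macrophage elastase, was at 535, 569, 754 and 1012 CPM and then at 170, 145 and 130 CPM (4.84-fold lower, adjusted p = 7.89e-08). Its mean was highest at 4 weeks, 1215 CPM. Trem2, a lipid-sensing receptor, fell 3.28-fold (adjusted p = 3.19e-05), Abca1, a cholesterol exporter, 2.41-fold (adjusted p = 9.66e-05), and Apoe, which carries lipid out of the cell, 1.84-fold (adjusted p = 0.000575). Mertk, a receptor for dying cells, fell 3.10-fold (adjusted p = 0.00372). The 1 called higher in the fit of all groups was Abcg1, with log2 fold change 0.81 and adjusted p = 0.0465. Its libraries overlapped between the ages, and it lost its call without the 2 week replicate 1, 3 or 4 or the 12 week replicate 1 or 3. Nr1h3, which encodes the oxysterol receptor LXR-alpha, rose 30.4-fold, from 1.73 to 4.20 CPM up to 70.0, 68.6 and 113 CPM (adjusted p = 0.000857).

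Growth factor and matrix genes gave 2 higher and 5 lower of 25 tested, with a median of 0.25 and 14 positive log2 fold changes, and 3 lower without the 12 week replicate 1. Sparc (chr11:55394500-55423183, minus strand), a secreted protein that binds collagen, was at 440, 428, 396 and 366 CPM at 2 weeks and at 17.7, 19.3 and 18.5 CPM at 12 weeks (22.0-fold lower, adjusted p = 1.56e-08). It was already at a mean of 46.9 CPM at 4 weeks and at 14.3 CPM at 8 weeks. Thbs1, thrombospondin 1, fell 8.52-fold (adjusted p = 2.18e-05). Igf1, a growth factor, fell by 3.32 ± 0.74 on the log2 scale (adjusted p = 0.00566), and was not called without the 12 week replicate 1 or the 12 week replicate 3 (adjusted p up to 0.0661). Nid2, a basement membrane protein, was at 26.6 to 56.9 CPM and then at 1.10 to 1.69 CPM (26.4-fold lower, adjusted p = 0.000446). In the list of alternatively activated or perivascular macrophages, 2 of 22 were higher and 4 lower. Dab2, an endocytic adaptor, was at 1308, 1180, 1124 and 1249 CPM and then at 288, 259 and 271 CPM (4.46-fold lower, adjusted p = 5.76e-10). Mrc1, the mannose receptor, fell 2.70-fold (adjusted p = 0.000839), while Timd4, a receptor for phosphatidylserine, rose 43.8-fold (adjusted p = 0.00266). Outside the lists, Plxdc2, a transmembrane protein, fell 5.32-fold and Slco2b1, a transporter of organic anions, 6.62-fold (adjusted p = 4.69e-11 and 2.38e-10).

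Genes that define macrophages moved in both directions. Of 21 core genes 3 were higher, Itgax of the gate among them, and 5 lower. Lyz2, lysozyme, was at 651, 580, 583 and 560 CPM at 2 weeks and at 1828, 1785 and 2990 CPM at 12 weeks (3.71-fold, adjusted p = 3.58e-06). Maf, a transcription factor of resident macrophages, fell 2.53-fold (adjusted p = 0.00048), and Itgam, the alpha chain of complement receptor 3, 2.53-fold (adjusted p = 0.00267). Among Fc receptors and Siglecs, 6 of 19 were higher and 3 lower: Siglech was at 104 to 179 CPM and then at 24.3, 28.1 and 10.6 CPM (6.69-fold lower, adjusted p = 1.45e-06), and Cd33 fell by 1.84 on the log2 scale (adjusted p = 7.89e-08). Of 32 macrophage transcription factors 6 were higher and 3 lower, with Id2, a partner that blocks DNA binding, up 3.45-fold (adjusted p = 6.56e-05) and Bhlhe41 down 4.06-fold (adjusted p = 0.000222).

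Of 19 glycolysis genes 5 were higher, and 3 without the 2 week replicate 1, the 2 week replicate 4 or the 12 week replicate 3 and 2 without the 12 week replicate 1. The glucose transporter Slc2a1 was at 31.9, 39.9, 52.1 and 35.6 CPM and then at 114, 85.3 and 96.2 CPM (2.47-fold, adjusted p = 0.00146), Hk3 rose 6.51-fold and Hk2 2.22-fold (adjusted p = 0.00164 and 0.00965). Hk2 was not called without the 12 week replicate 1 (adjusted p = 0.113). No gene of 37 in oxidative phosphorylation and no gene of 22 in cholesterol synthesis was called by edgeR in the fit of all groups (medians 0.13 and 0.42). At an unadjusted p under 0.05 the counts were 0 and 3 higher, DESeq2 called 0 and 1 higher, limma-voom called 0 and 6 higher, and edgeR on the NOD libraries alone called 2 and 5 higher. The cell cycle list had 38 tested genes, of which edgeR called 0 (median -0.77) and 3 were lower at an unadjusted p under 0.05. For the same list DESeq2 called 0, limma-voom called 20 lower, and the fit of the NOD libraries alone called 14 lower. Immediate early and dissociation stress genes gave 5 higher of 29 (3 without the 2 week replicate 1, 2 without the 2 week replicate 2 and 1 without the 12 week replicate 1), among them the heat shock gene Dnajb1, at 56.3 to 91.7 CPM and then at 379, 213 and 260 CPM (3.97-fold, adjusted p = 2.12e-06). The sum of that list ran from 8912 to 18390 CPM at 2 weeks and from 13262 to 23126 CPM at 12 weeks, and its part in the other changes was not tested.

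The same span of age in B6 shows which changes were shared. There 392 genes were called (1.99% of those tested), 151 higher and 241 lower. Leaving out any B6 library but the 12 week replicate 4 brought this to between 185 (without the 2 week replicate 3) and 250 (without the 2 week replicate 1). Of the NOD calls, 97 were also called in B6, which is 16.2% of the NOD calls and 24.7% of the B6 calls. Of these, 42 were higher in both strains and 36 lower in both, while 10 were higher in NOD and lower in B6 and 9 the reverse. Without the B6 2 week replicate 2, 196 genes were called in B6 and 66 in both strains, 32 higher in both and 24 lower in both. Lyz2 rose by 1.83 ± 0.26 in B6 against 1.89 ± 0.24 in NOD, and Dnajb1 by 2.09 ± 0.27 against 1.99 ± 0.25. H2-Ab1 rose by 1.15 ± 0.18 in B6, against 2.77 ± 0.18 in NOD, and the difference went from 1.62 to 1.26 without the B6 2 week replicate 2. Of 13 class II genes tested, 6 were higher and 1 was lower in B6. The mean of H2-Ab1 was 11274 CPM in B6 at 4 weeks, against 9099 CPM in NOD at 12 weeks. The summed class II list was at 52745 to 82906 CPM in the former and 43760 to 53825 CPM in the latter. Class II levels this high were thus not particular to NOD at 12 weeks. Cxcl9 was at 5.08, 54.8 and 14.3 CPM in B6 at 2 weeks and at 13.4, 44.2, 32.9 and 29.3 CPM at 12 weeks, so the B6 libraries overlapped between the ages, and the B6 change was 0.28 ± 0.84 (adjusted p = 0.939). The 54.8 CPM belong to the 2 week replicate 2, and without it the B6 change was 1.63 ± 0.96 (adjusted p = 0.559) and the difference between the strains went from 8.22 to 6.86 (adjusted p = 0.000701 and 0.00493).

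The difference between the strains in the change was itself tested and called for 329 genes (1.67%), of which 221 were among the 599 NOD calls. For 145 of the 352 genes that rose in NOD, and for 76 of the 247 that fell, the difference was called. The change was higher in NOD than in B6 for 21 members of the interferon-gamma list, 6 of the class II and 10 of the class I members. It was lower in NOD for 4 of the lipid list, whether or not the gene fell in B6. Without the NOD 12 week replicate 3 the total was 205 genes. Without the B6 2 week replicate 2 it was 187 genes, of which 129 were among the NOD calls (84 that rose and 45 that fell), with 13 interferon-gamma, 4 class II, 6 class I and 4 lipid members. Cxcl13 differed by 8.20 ± 0.51 (adjusted p = 3.17e-12) and by 8.25 without that library, C3 by 5.38 ± 0.55 and by 5.22 without it, and H2-K1 by 2.22 ± 0.23 and by 1.95 without it. For genes that were high in that library the value depended on it more: Ly6a, at 0.331, 24.2 and 0.456 CPM in the B6 2 week libraries, differed by 12.04 ± 1.66 with it and 7.67 without (adjusted p = 2.58e-05 and 0.00608). Serpina3f differed by 9.06 ± 2.04 with it (adjusted p = 0.0122), and by 3.60 without it, which was not called (adjusted p = 0.752). The B6 change itself went from -3.29 to 1.07 in Ly6a and from -2.15 to 3.31 in Serpina3f without that library, called in neither case. In Iigp1 it went from -4.54 to -1.54, and its call as lower in B6 was lost (adjusted p = 0.00769 and 0.538).

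Some genes that fell in NOD rose in B6. Mmp12 was at 345, 379 and 201 CPM in B6 at 2 weeks and at 801, 996, 1007 and 616 CPM at 12 weeks, a rise of 1.47 ± 0.23 against the NOD fall of 2.27 (difference -3.74 ± 0.33, adjusted p = 9.24e-09). Siglech rose by 1.42 ± 0.32 in B6 (difference -4.17 ± 0.46, adjusted p = 7.18e-07). Cd36 was at 82.9, 126 and 81.3 CPM and then at 86.6, 115, 156 and 97.3 CPM in B6, overlapping between the ages (difference -4.25 ± 0.41, adjusted p = 6.18e-08). Dab2 fell in both strains, by 0.83 ± 0.17 in B6 and 2.16 ± 0.18 in NOD (difference -1.32 ± 0.24, adjusted p = 0.00124). Reads of NOD mice were set against a reference built from B6, and the part of this in the differences between the strains was not tested.

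**Figure D3:**
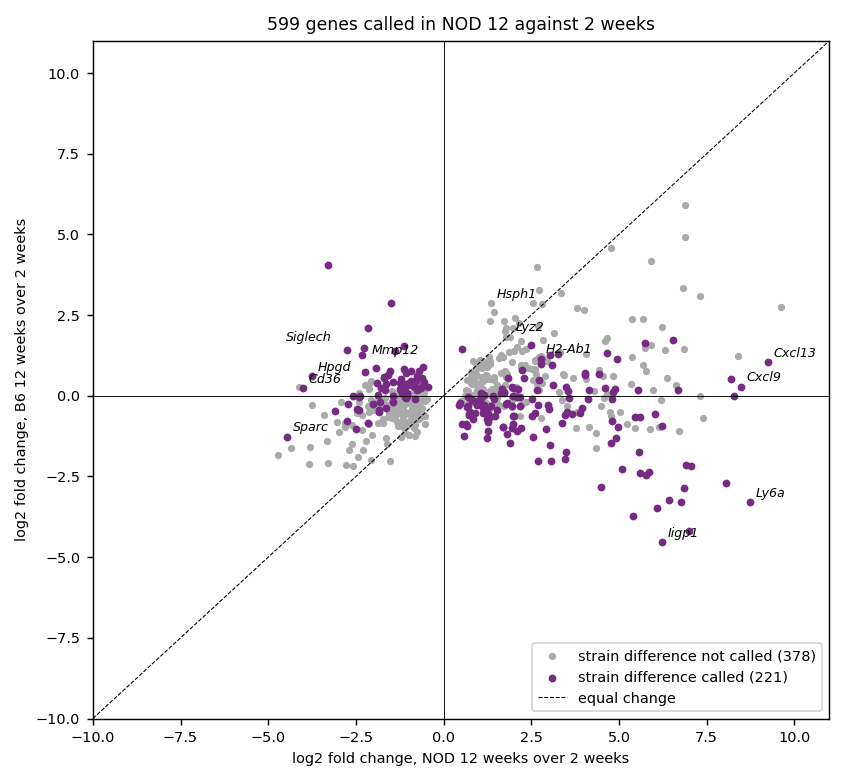
Log2 fold change of 12 over 2 weeks in B6 (vertical axis) against NOD (horizontal axis) for the 599 genes called in NOD, with a dashed line at equal change. Purple points are the 221 genes whose change differed between the strains, and the horizontal axis holds the values that chose the genes.

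The step from 4 to 8 weeks shares no library with the 12 against 2 week comparison and was added after the data were seen. It called 135 genes higher (0.685%) and 34 lower (0.173%). Of the 352 genes higher at 12 than at 2 weeks, 106 were higher in that step (30.1% of the 352 and 78.5% of the 135). Of the 247 lower genes, 30 were lower in it (12.1% and 88.2%). The median log2 fold change in that step was 1.15 over the genes that rose and -0.50 over those that fell, against -0.02 over all genes. Cxcl13 rose by 5.41 and C3 by 3.56 between 4 and 8 weeks (adjusted p = 6.56e-12 and 1.62e-06), and Cd36 fell by 1.77 (adjusted p = 0.000104). Some named falls, such as Mrc1, Mertk and Itgam, were not called in that step. Mrc1 was at 133 to 182 CPM at 2 weeks and at 45.3 to 74.9 CPM at 4 weeks, and changed by 0.32 from 4 to 8 weeks (adjusted p = 1).

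Markers of cells other than macrophages were measured in the same libraries. In a bulk sample, fewer cells of a type and less RNA per cell cannot be told apart, and neither can more cells and more RNA per cell. Of 15 dendritic markers tested, 3 were higher and 1 lower, and the summed list was at 1870 to 2281 CPM at 2 weeks and at 1875 to 2496 CPM at 12 weeks. Clec9a, a receptor for dead cells that marks cross-presenting dendritic cells, was at 0.646, 0.129, 0.945 and 2.40 CPM and then at 92.0, 100 and 160 CPM (116-fold, adjusted p = 0.000883). Xcr1, a chemokine receptor of the same cells, was at 0.258 to 1.03 CPM and then at 11.8 CPM or more in each 12 week library (21.4-fold, adjusted p = 0.0432), and was not called when any library of either group was left out. Dpp4 was also higher, while the defining genes Flt3 and Zbtb46 were not called, at 3.99, 4.76 and 4.84 CPM and at 5.50, 6.10 and 5.63 CPM at 12 weeks. The 1 that was lower was Siglech.

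Of 7 natural killer markers tested, 2 were higher, Klrk1 and Klra8, neither called without the 2 week replicate 1, and the sum was at 3.68 to 5.32 CPM at 2 weeks and at 27.8 to 35.0 CPM at 12 weeks. Klrk1, which encodes the receptor NKG2D, made up most of it, at 0.194 to 1.29 CPM and then at 16.4, 17.7 and 22.0 CPM (adjusted p = 0.0197). Its call was lost when the 2 week replicate 1, the 2 week replicate 2 or the 12 week replicate 3 was left out. Ncr1, the defining receptor, was at 0.108, 0.610 and 0 CPM at 12 weeks. Of 14 T cell markers, 0 were higher by edgeR in the fit of all groups, 4 at an unadjusted p under 0.05, 0 by DESeq2, 4 by limma-voom and 1 by edgeR on the NOD libraries alone, and 1, Il7r, was lower. Cd3e was at 0 in all 2 week libraries and at 1.29, 2.81 and 3.15 CPM at 12 weeks, at least 44.6-fold higher than 3 counts over the 2 week group would be (adjusted p = 0.0695). It was called in some other fits, among them that with the replicate block and that of the NOD libraries alone (adjusted p = 0.00194 in the latter). Trac and Trbc2 were at 0 in all 2 week libraries and reached at most 2.08 and 1.80 CPM. The summed T cell list was at 233 to 321 CPM and then at 133 to 162 CPM, since Il7r and Cd4 hold most of it.

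Of 9 B and plasma cell markers, 2 were called, with sums of 459 to 581 and 376 to 592 CPM. Cd22, an inhibitory Siglec, was at 3.49 to 7.43 CPM and then at 63.7, 50.0 and 54.3 CPM (10.8-fold, adjusted p = 0.0154). Its call was lost without the 2 week replicate 1, 3 or 4 or the 12 week replicate 1. Igkc, the kappa light chain, was at 71.5, 0 and 0.225 CPM at 12 weeks, overlapping with 2 weeks, and its call was lost without replicate 1 and also when any single 2 week library was left out. Cd79a, a chain of the B cell receptor complex, was at most 0.323 CPM in any of the 7 libraries. Neutrophil markers S100a8 and S100a9 were at 0 in nearly all libraries, with S100a9 at 0.122 CPM in 1 of them, and 1 of 7 tested neutrophil markers was called, Csf3r, which made up most of sums of 34.4 to 64.3 CPM at 2 weeks and 148 to 174 CPM at 12 weeks. The endothelial sum was 81.6 to 92.8 CPM at 2 weeks and 172 to 197 CPM at 12 weeks, with 1 of 11 markers called, Eng, which was not called without the 12 week replicate 3 (adjusted p = 0.0514). The monocyte sum was 610 to 756 and 503 to 623 CPM, with 1 of 14 markers, Spn, called higher (adjusted p = 1.10e-05) and Ly6c2 at 0.854 to 1.29 CPM at 12 weeks. Of 19 islet endocrine markers, 0 were called by edgeR, 1 was higher at an unadjusted p under 0.05, DESeq2 called 0, limma-voom 2 and edgeR on the NOD libraries alone 1. Their sum was 804 to 3573 CPM and 2477 to 3819 CPM, mostly insulin RNA, and the acinar sum was at most 24.5 CPM. The part of these cells in the changes above was not tested.

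**Figure D4:**
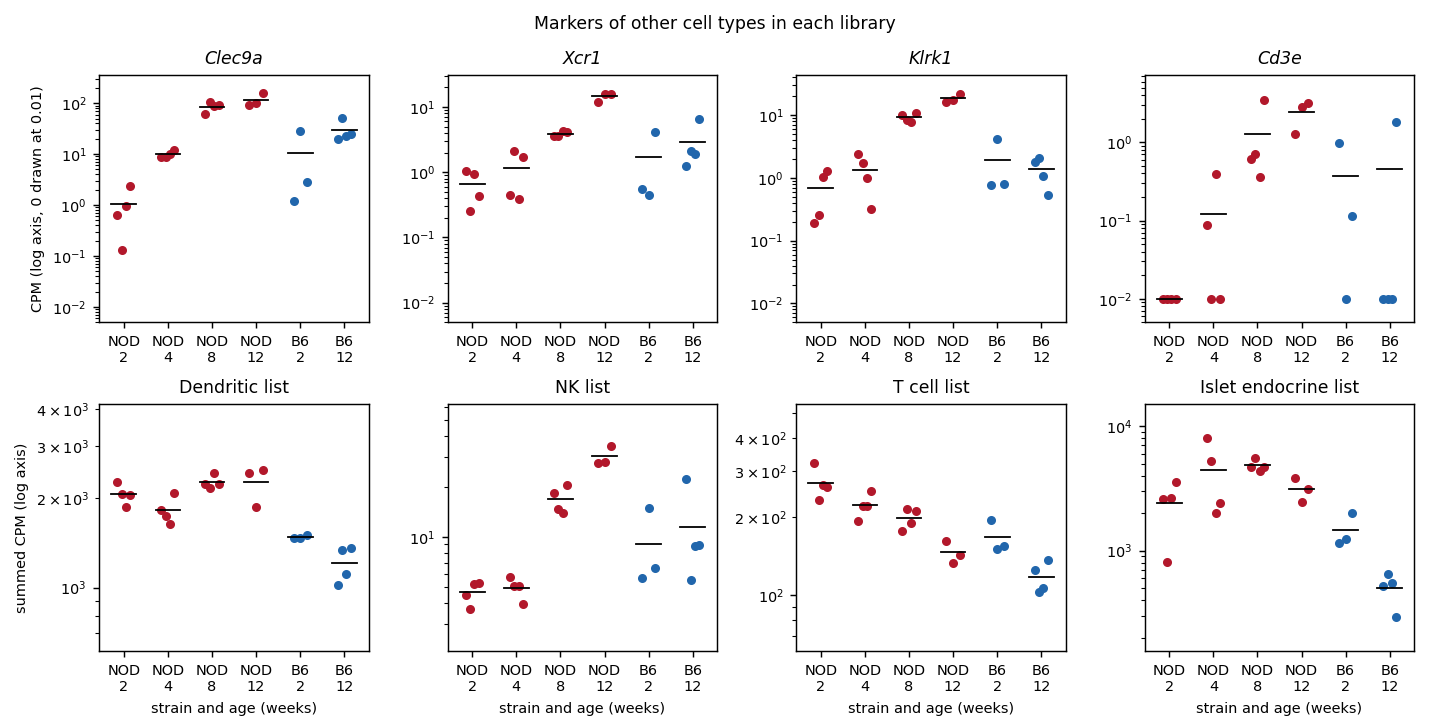
Markers of other cell types in each library by strain and age in weeks, as CPM on log axes with a bar at the group mean; the upper row shows single genes, with 0 drawn at 0.01, and the lower row the sum of a list. Clec9a and the natural killer list separate NOD at 12 weeks from NOD at 2 weeks, and the dendritic and islet endocrine sums overlap.

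Genes with few counts at 2 weeks gave the least certain sizes. Gstt1, a glutathione transferase, had 3 counts over the 2 week group and 218 over the 12 week group, a ratio of 153 per scaled total with a 95% counting interval of 51.5 to 746. Tmem171, a membrane protein, had 2 and 201 counts, a ratio of 211 with an interval of 57.7 to 1754. Gstt1 lost its call without the 2 week replicate 1, 2 or 3 or the 12 week replicate 3, and Tmem171 without the 2 week replicate 1 (adjusted p up to 0.119 and 0.0527). These intervals cover counting error only. Sema7a, a semaphorin, was at 0 to 0.172 CPM and then at 7.01, 13.9 and 9.69 CPM (adjusted p = 0.0224), and its call was lost without 6 of the 7 libraries in turn. Spon1, a matrix protein, was at 0 to 1.42 CPM and then at 53.0, 47.6 and 115 CPM (adjusted p = 4.80e-05), and kept its call in every setting tried. Of the 173 named genes that were called, 111 kept their call in every setting tried and 62 lost it in at least 1, while the sign changed in 0.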

How the data were processed

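RNA of macrophages sorted from pooled islets of female NOD and B6 mice had been amplified and sequenced. Libraries were grouped by the strain and age in their labels, which name no batch. The authors deposited 1 table of raw counts, whole numbers of reads for each gene, without normalization. The tools named in the submitters' processing notes are STAR, HTSeq and DESeq2, the builds are mm10 and GRCm38, and versions are not given in the sources used here. Whether the counting used strand is not given either, so overlapping genes may share reads. The table held 41092 lines, and 534 identical repeats of 286 gene IDs were removed. Symbols and positions came from GENCODE M21 (GRCm38).

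From these counts, in R 4.3.3, genes were kept by filterByExpr (minimum count 10, minimum total 15) and scaled by TMM, and edgeR 4.0.16 fitted a quasi-likelihood model with 1 mean per group to all 26 libraries in 7 groups. Adjusted p-values are Benjamini-Hochberg over the 19703 genes tested, and in each alternative fit, such as one that leaves out a library or uses only the NOD libraries, over the genes tested there. The SE is the log2 fold change divided by the square root of the F value. A group at 0 was set against 3 counts over the group. Libraries were not paired by replicate number, because the labels do not say that the numbers pair them. The deviations of same-numbered NOD libraries at 2 and 12 weeks correlated at -0.005, -0.023 and -0.067. With so few libraries in a group, these values cannot exclude a pairing.

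The gene lists, the comparison and the rule for naming genes were chosen with earlier results of these data known. The rule took the 15 largest rises and falls with a mean of at least 5 CPM in the higher group and no overlap of libraries, the 10 smallest adjusted p with at least 100 CPM, up to 5 members of each list by adjusted p with further called members, the 6 largest strain differences in each direction, and check genes, with some left out for room. Irf8, Fcgr1, Isg15, Ifit1, Tnf and the markers of other cells that were not called were named for their roles. Alternatives were scaling by RLE or by the upper quartile, dropping the filter or raising it to 5 CPM in 3 libraries, DESeq2 1.42.0, weighted voom in limma 3.58.1, a replicate block, fits of fewer groups, a log2 fold change of at least 1 in size, and omitting each library in turn. Counts were also simulated at the depths of all 26 libraries, with each gene's mean taken over all of them, and 18180 genes were tested. The test recovered 6, 20, 20 and 33 of 50 genes changed by folds of 2, 4, 8 and 16 in NOD 12 against 2 weeks, and called 2 unchanged genes. Promoter windows came from RefSeq (GRCm38.p6). Some genes are not reported here.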

Additional observations from a re-analysis of the deposited data

Results flagged for a closer look

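The 143 named genes that were called and had a mean of at least 5 CPM at 2 weeks were examined for a far library. In 8 of them, 1 of the 4 NOD libraries at 2 weeks lay far from the other 3. Chance gives about 1 in 20, so this count is about what chance would give. Lowest libraries stood apart for Aif1 (309 CPM, the others from 385 to 401), Csf1r (2201 CPM, the others from 2308 to 2320), Csf3r (33.2 CPM, the others from 58.6 to 60.7), Il1a (238 CPM, the others from 334 to 335) and Zbp1 (5.94 CPM, the others from 15.5 to 17.3). Highest libraries stood apart for Clec4a1 (19.6 CPM, the others from 7.30 to 9.24), Maf (286 CPM, the others from 181 to 198) and Tnfsf13b (49.1 CPM, the others from 23.6 to 26.9). None of these libraries reached the range of the 12 week libraries.

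The change from 2 to 12 weeks differed between NOD and B6 by a test of the difference for 87 of 242 named genes, of which 58 were still called without the B6 2 week replicate 2. The largest differences with a higher change in NOD, on the log2 scale, were Ly6a at 12.04, Iigp1 at 10.78, Serpina3g at 10.77, Sema7a at 9.73, Ly6i at 9.11 and Serpina3f at 9.06. Without that library they were 7.67, 7.77, 8.00, 7.45, 7.42 and 3.60, and those of Sema7a and Serpina3f were no longer called (adjusted p = 0.145 and 0.752). In that library Iigp1 was at 37.7 CPM, against 0.993 and 2.40 CPM in the other B6 libraries at 2 weeks. The largest differences with a lower change in NOD were St6galnac1 at -7.36, Atp2b4 at -4.39, Hpgd at -4.36, Cd36 at -4.25, Siglech at -4.17 and Mmp12 at -3.74. Without the same library they were -7.37, -4.41, -4.31, -4.50, -4.51 and -3.93, and that of St6galnac1 was no longer called (adjusted p = 0.0855). St6galnac1 was at 0 in all B6 libraries at 2 weeks, so its difference rests on few counts in B6 and its size is no bound.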

How the results depend on the processing

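The number of called genes depended on the fit more than their direction did. Genes higher in NOD at 12 weeks numbered 352, against 699 with DESeq2, 2257 with limma-voom, 898 with only the compared groups, 897 without the B6 4 week libraries and 1284 with only the NOD libraries. Leaving out 1 library at a time gave 209 to 283, lowest without the 12 week replicate 3 and 216 without the 12 week replicate 1. Genes lower numbered 247, against 1244 with limma-voom, 803, 744 and 1218 with those 3 choices of libraries, 155 where the log2 fold change also had to reach 1 in size, and 142 to 205 with 1 library left out (142 without the 12 week replicate 2 and also without replicate 3, and 157 without replicate 1). Calls in B6 numbered 392, against 954 with DESeq2, 1807 without the B6 4 week libraries, 248 with that minimum and 185 to 433 with 1 library left out. The strain difference was called for 329 genes, against 646 with DESeq2, 815 with limma-voom, 705 with only the compared groups, 1191 without the B6 4 week libraries and 187 to 325 with 1 library left out, lowest without the B6 2 week replicate 2 and 205 without the NOD 12 week replicate 3. The cause of these differences was not tested. With the replicate block, counts were 296 higher and 209 lower in NOD, 335 in B6 and 254 for the strain difference. RLE scaling moved the median log2 fold change of all genes from 0.08 to 0.19 and upper-quartile scaling to 0.23; RLE gave 404 higher and 189 lower. Of the named calls, 35 were lost in at least 1 setting that left out no library. In the simulated counts the test recovered few changes of 2-fold, so a gene that was not called may still have changed.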
